A study of Mus musculus with 14 samples.

Results

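The genes examined are 9 genes of mitochondrial fatty acid oxidation: Ppara, Cpt1a, Cpt1b, Cpt2, Acadm, Acadl, Acadvl, Hadha and Pdk4. They were found by symbol among the 55401 genes counted in each library, and all 9 had enough reads to be tested. RNA came from marrow plugs flushed from the distal tibia, a site rich in bone marrow adipocytes (BMAds), of male mice aged 24 weeks on a mixed C57BL6/SJL background, with plugs of 2 mice pooled in each of 14 samples. The 4 groups were BMAd-Pnpla2+/+ fed ad libitum (AL, 4 samples), BMAd-Pnpla2+/+ under caloric restriction (CR, 4 samples), BMAd-Pnpla2-/- fed AL (3 samples) and BMAd-Pnpla2-/- under CR (3 samples). CR was a 30% cut in food for 6 weeks. Every group carried both drivers, Osterix-FLPo and a FLPo-dependent Adipoq-Cre, whose cassette also lowers adiponectin. Most but not all mice of the study had 2 alleles of each driver. The BMAd-Pnpla2-/- groups carried floxed Pnpla2 in addition, so that Cre deletes Pnpla2 in bone marrow adipocytes and leaves it in most other cells of the plug. Recombination in this line is less frequent in young mice, and a small share of stromal cells is labelled as well. The label of this gene set also names ketogenesis, but none of the 9 genes encodes a ketogenic enzyme, and ketone body genes are therefore described as a separate list.

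Pnpla2 encodes adipose triglyceride lipase, which releases fatty acids from stored fat. A fatty acid that is to be burned is activated to its acyl-CoA, passed to carnitine by carnitine palmitoyltransferase 1 at the outer mitochondrial membrane (Cpt1a, the form of liver and many other tissues, or Cpt1b, the form of muscle and brown fat) and returned to CoA inside by Cpt2. Acyl-CoA dehydrogenases for very long, long and medium chains (Acadvl, Acadl, Acadm) then start each round of beta-oxidation, and the trifunctional protein, whose alpha subunit is Hadha, carries long chains through the next steps. Ppara encodes the nuclear receptor PPAR-alpha, best known as the fasting sensor of liver that switches these genes on when fatty acids bind it. Pdk4 encodes a kinase that shuts the pyruvate dehydrogenase complex, which spares glucose while fat is burned.

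The sequences just before the starts of Pdk4, Acadm and Cpt2 are shown because these are 3 of the 4 genes that rose under CR. They are the RefSeq windows of 250 bases before the start (build GRCm38.p6), less the bases that GENCODE places in an exon, on the strand of the gene, with the letters of any searched motif in capitals. Pdk4 lies at chr6:5496310-5496528, Acadm at chr3:153944644-153944893 and Cpt2 at chr4:107923611-107923839, all on the minus strand.
Pdk4: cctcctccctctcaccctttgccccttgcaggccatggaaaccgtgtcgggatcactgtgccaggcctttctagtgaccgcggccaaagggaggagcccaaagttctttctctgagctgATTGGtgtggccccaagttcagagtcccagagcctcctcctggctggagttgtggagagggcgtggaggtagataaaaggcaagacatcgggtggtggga
Acadm: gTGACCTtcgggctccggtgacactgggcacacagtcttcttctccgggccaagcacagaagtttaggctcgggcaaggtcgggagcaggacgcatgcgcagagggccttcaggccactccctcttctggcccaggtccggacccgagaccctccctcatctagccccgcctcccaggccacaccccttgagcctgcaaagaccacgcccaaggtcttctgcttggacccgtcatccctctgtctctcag
Cpt2: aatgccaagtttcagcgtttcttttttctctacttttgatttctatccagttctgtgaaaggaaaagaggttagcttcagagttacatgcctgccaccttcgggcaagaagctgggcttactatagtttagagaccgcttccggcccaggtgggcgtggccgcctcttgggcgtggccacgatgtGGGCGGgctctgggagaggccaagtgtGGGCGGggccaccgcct
The motifs, searched on both strands, were AGGTCA (the core letters bound by nuclear receptors such as PPAR-alpha), GTAAACA (the forkhead core), CCAAT and GGGCGG (the GC box), none of which overlap in these stretches. In the Pdk4 sequence the capitals mark CCAAT on the other strand, 131 to 127 bases before the RefSeq start. In Acadm they mark AGGTCA on the other strand, 249 to 244 bases before the start. In Cpt2 they mark 2 GC boxes, 65 to 60 and 38 to 33 bases before the start. Windows were found for 8 of the 9 genes. AGGTCA was in 3 of the 8 (Acadm, Acadvl, Cpt1a) against 14% of all 32851 windows, CCAAT in 2 of 8 against 33.8%, GGGCGG in 5 of 8 against 32.7% and GTAAACA in 0 of 8 against 3.17%. The full PPAR element, taken here as 2 copies of AGGTCA in the same direction 1 base apart, was in 0 of the 8 windows and in 0.0335% of all windows. The 8 windows held 49.6% (Acadvl) to 76.4% (Ppara) G and C, against a median of 52.4% over all windows. The shares were not adjusted for this. A match is a description of the letters and not a binding site. The Ppara window holds 2 GC boxes and overlaps annotated exons of the gene at 150 of its bases, so it is not printed.

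Unstranded gene counts per library ranged from 18898324 to 21665553 (median 19551957). The targeted gene followed the labels: Pnpla2 was at 174 to 301 CPM (counts scaled to library size by TMM) in BMAd-Pnpla2+/+ AL, 502 to 1015 in BMAd-Pnpla2+/+ CR, 131 to 170 in BMAd-Pnpla2-/- AL and 177 to 267 in BMAd-Pnpla2-/- CR. On either diet the knockout samples were thus all lower than the controls. Fed AL, this difference did not pass the test used below, as 0 of all 17671 genes did. The adipocyte markers listed below were also lower there (median log2 difference -1.14). The 3 BMAd-Pnpla2-/- CR libraries carried no strand information: 50.1% to 50.5% of their strand-assigned reads fell on the first strand, against 4.30% to 4.62% in the other 11. Strand and group cannot be told apart, so unstranded counts of all 14 samples were used throughout. This evens out the counting only. In every comparison with BMAd-Pnpla2-/- CR, an effect of genotype or diet cannot be told apart from a difference in how these libraries were made. Of the defining adipocyte markers (Adipoq, Plin1, Cidec, Lep, Retn, Cfd, Fabp4, Lipe), all 8 were detected in every group, next to a much larger neutrophil signal, so the plugs were mixed marrow that held adipocyte RNA.

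Levels between genes were compared as RPKM (reads per kilobase of exon, scaled to library size and computed here). In BMAd-Pnpla2+/+ AL the order was Acadl at 34.1 ± 4.30 RPKM (SD, 4 samples, as for the rest of this order), Cpt1a at 23.5 ± 2.98, Hadha at 20.9 ± 1.28, Cpt2 at 17.6 ± 1.76, Acadm at 12.6 ± 0.571 and Acadvl at 8.62 ± 0.826. Pdk4 at 0.798 ± 0.242, Cpt1b at 0.199 ± 0.0679 and Ppara at 0.0848 ± 0.0242 RPKM came far below. The sample ranges of Cpt1a and Hadha overlapped, as did those of Hadha and Cpt2, while the other neighbours in the order were separate. The marrow plug thus held abundant transcripts of the enzymes and almost none of the receptor: Ppara was counted with 5 to 9 reads per AL sample. In BMAd-Pnpla2+/+ CR, Cpt2 (22.4 ± 2.49 RPKM) and Acadm (18.6 ± 2.92) stood above Hadha (18.1 ± 1.43), but the ranges of Cpt1a, Cpt2, Acadm and Hadha overlapped from each to the next. Pdk4 reached 4.14 ± 2.29 RPKM, and Ppara (0.338 ± 0.165) stood beside Cpt1b (0.313 ± 0.0365) with overlapping ranges. The knockout fed AL had the same order as the control fed AL. In BMAd-Pnpla2-/- under CR the order was Acadl, Cpt1a, Cpt2, Hadha, Acadm, Acadvl, Pdk4, Cpt1b, Ppara, with overlap from Cpt2 through Acadm and between Cpt1b and Ppara. Cpt1b shares 81.4% of its exon bases with Gm44502 on the same strand, and Acadvl shares 42.9% with Dvl2 on the other. The RPKM of Cpt1b and Acadvl are therefore uncertain and low. Gm44502 had 0 reads in all samples, but it has no exon base of its own, so this does not show its level. Per base that no other gene shares, Cpt1b and Acadvl were at 1.07 and 15.1 RPKM in BMAd-Pnpla2+/+ AL, above Pdk4 and Acadm. By that measure Cpt1b was at 1.68 RPKM in BMAd-Pnpla2+/+ CR and 1.13 in BMAd-Pnpla2-/- CR, well above Ppara. The places of Cpt1b and Acadvl in the orders above, and the overlap of Cpt1b with Ppara, thus depend on the length used.

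**Figure D1:**
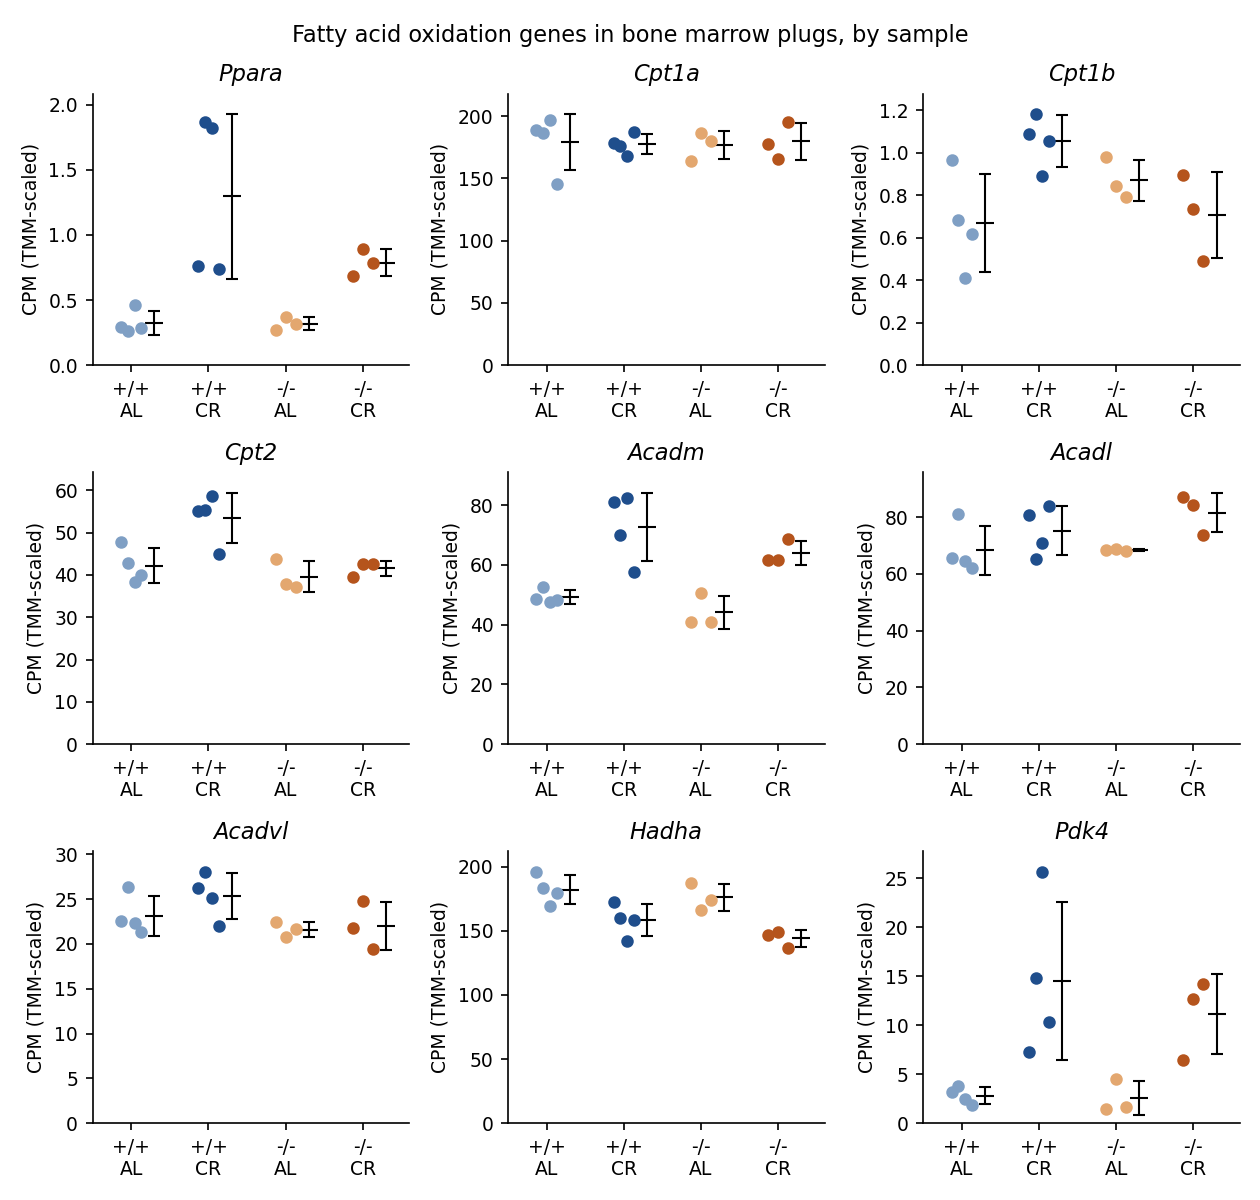
Level of each of the 9 genes in each of the 14 samples, in CPM scaled by TMM (y axis from 0), by genotype and diet; each point is a sample of 2 pooled mice and the bar beside each group is its mean ± SD. Ppara, Acadm and Pdk4 in BMAd-Pnpla2+/+ CR lie wholly above BMAd-Pnpla2+/+ AL, while Cpt1a stays between 145.9 and 196.6 CPM in all groups.

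The first comparison asked how 6 weeks of CR changed these genes in mice that kept Pnpla2. Pdk4 rose 5.19-fold, Ppara 3.96-fold, Acadm 1.48-fold and Cpt2 1.27-fold, and no member fell past the threshold. Cpt1a, the usual entry gate, differed by -0.015 on the log2 scale and did not pass. By edgeR's quasi-likelihood test with Benjamini-Hochberg adjustment over the 17671 genes tested, 4 of the 9 genes passed an adjusted p of 0.05, all 4 higher under CR, against 26% of all genes tested (15.1% higher and 10.9% lower). With the study's added threshold of an absolute log2 fold change over 1, Ppara and Pdk4 passed, 2 of 9, against 9.28% of all genes. The median log2 fold change of the 9 genes was 0.34 and that of all genes 0.0028. In bulk RNA, fewer or more cells of a type and less or more RNA per cell cannot be told apart, and p-values here measure the spread between pooled samples.

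Ppara (ENSMUSG00000022383.13, chr15:85734983-85802819) was the rarest of the 9 genes per length in AL. Positions here and below are whole genes in GRCm38 (mm10) as GENCODE M21 annotates them. Its level in BMAd-Pnpla2+/+ AL was 0.290, 0.264, 0.463 and 0.284 CPM, and under CR it was 0.758, 1.87, 1.82 and 0.739 CPM. Each CR sample lay above each AL sample, and the CR samples fell into a lower and a higher pair. The log2 fold change was 1.99 (SE 0.375, 95% interval 1.18 to 2.79, adjusted p = 0.00414). These values rest on 5 to 9 reads per AL sample and 14 to 41 per CR sample.

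Among the carnitine transferases, Cpt1a (ENSMUSG00000024900.5, chr19:3322334-3385733) was at 188.6, 186.2, 196.6 and 145.9 CPM in BMAd-Pnpla2+/+ AL and at 178.3, 176.2, 168.0 and 187.1 CPM under CR. The groups overlapped, and the log2 difference of -0.015 had a 95% interval from -0.22 to 0.19 (adjusted p = 0.920). Cpt2 (ENSMUSG00000028607.16, chr4:107903981-107923610), which works inside the mitochondrion, was at 47.8, 42.7, 38.2 and 39.9 CPM in AL and at 55.1, 55.3, 58.7 and 44.9 CPM under CR. Only the lowest CR sample, replicate 4, lay within the AL range, and the log2 fold change was 0.34 (SE 0.102, 95% interval 0.12 to 0.56, adjusted p = 0.0269). This was the least firm of the 4 calls, which was lost in 6 of 14 fits that left out 1 sample, without BMAd-Pnpla2+/+ AL replicate 2, 3 or 4 or CR replicate 1, 2 or 3 (adjusted p 0.0505 to 0.102 in those). Calls over all genes in those fits were 3065, 2937, 3424, 4724, 2694 and 2228, in that order, against 4602 with all samples. Cpt1b (ENSMUSG00000078937.8, chr15:89416405-89425863), the muscle form, ran from 0.412 to 0.966 CPM in AL and from 0.889 to 1.19 CPM under CR, on 8 to 26 reads a sample. Its log2 difference of 0.65 (95% interval 0.035 to 1.26) did not pass (adjusted p = 0.106).

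Of the dehydrogenases, the medium-chain one passed and the others did not. Acadm (ENSMUSG00000062908.12, chr3:153922357-153944632) was at 48.6, 52.6, 47.7 and 48.3 CPM in BMAd-Pnpla2+/+ AL and at 80.9, 70.1, 82.4 and 57.7 CPM under CR. Every CR sample was above every AL sample (log2 fold change 0.56, SE 0.112, 95% interval 0.32 to 0.80, adjusted p = 0.00520). Acadl (ENSMUSG00000026003.5, chr1:66830839-66863277), for long chains, was at 62.1 to 81.1 CPM in AL and 65.4 to 83.8 CPM under CR (log2 difference 0.14, 95% interval -0.083 to 0.36, adjusted p = 0.329). Acadvl (ENSMUSG00000018574.14, chr11:70010183-70015411), for very long chains, was at 21.3 to 26.4 CPM in AL and 22.1 to 28.1 CPM under CR (log2 difference 0.13, 95% interval -0.098 to 0.36, adjusted p = 0.371). The estimate for Hadha (ENSMUSG00000025745.12, chr5:30118304-30155162) was negative: it was at 196.2, 183.2, 169.2 and 179.6 CPM in AL and at 172.8, 160.2, 142.4 and 158.1 CPM under CR. The groups overlapped at 1 sample, CR replicate 1, and the log2 difference of -0.20 (95% interval -0.37 to -0.030) missed the threshold at an adjusted p of 0.0765, though DESeq2 called it (adjusted p = 0.0295).

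Pdk4 (ENSMUSG00000019577.6, chr6:5483351-5496309), the kinase gene that closes pyruvate dehydrogenase, had the largest log2 fold change of the 9 genes. It was at 3.14, 3.80, 2.42 and 1.85 CPM in BMAd-Pnpla2+/+ AL and at 7.30, 14.9, 25.7 and 10.3 CPM under CR. All CR samples exceeded all AL samples, and within CR the highest and the lowest sample were far apart (mean 14.5 ± 8.05 CPM, SD). The log2 fold change was 2.38 (SE 0.449, 95% interval 1.41 to 3.35, adjusted p = 0.00446). Ppara, Acadm and Pdk4 passed in 14 of 14 fits that left out 1 sample.

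The second comparison asked for the same response where adipocytes lacked Pnpla2. Pdk4 rose 4.36-fold and Acadm 1.45-fold, so 2 of the 9 genes passed, both higher, against 11.6% of all genes tested (6.04% higher and 5.57% lower). Pdk4 alone also passed the added fold threshold, which 3.53% of all genes did. The median log2 fold change of the 9 genes was 0.073, that of all genes 0.047. With libraries scaled by their totals alone, the median of all genes was 0.12 and the split of all calls went from 1067 higher and 985 lower to 1396 higher and 687 lower. With RLE factors the median was 0.010 and the split 913 higher and 1267 lower, so the balance of all calls turned with the scaling.

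Pdk4 was at 1.47, 4.53 and 1.64 CPM in BMAd-Pnpla2-/- AL and at 6.49, 12.7 and 14.2 CPM under CR. The groups did not overlap, and the log2 fold change was 2.12 (SE 0.522, 95% interval 0.998 to 3.25, adjusted p = 0.0233). Acadm was at 40.7, 50.6 and 41.0 CPM in AL and at 61.8, 61.8 and 68.8 CPM under CR, again without overlap (log2 fold change 0.54, SE 0.130, 95% interval 0.26 to 0.82, adjusted p = 0.0212). Both calls were lost without BMAd-Pnpla2-/- AL replicate 1 or 3 or CR replicate 3 (adjusted p 0.0902 to 0.117 for Acadm, 0.0825 to 0.0958 for Pdk4), and the Pdk4 call also without CR replicate 2 (adjusted p = 0.0666). Calls over all genes shrank in the same fits, from 2052 of 17671 to 444 of 18208, 555 of 18204, 243 of 18138 and 827 of 18199, in that order.

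Ppara in BMAd-Pnpla2-/- was at 0.272, 0.368 and 0.317 CPM in AL and at 0.685, 0.894 and 0.784 CPM under CR. Every CR sample again lay above every AL sample, but the log2 difference of 1.29 (95% interval 0.31 to 2.26) missed the threshold (adjusted p = 0.0790). Cpt2 was at 43.7, 37.8 and 37.1 CPM in AL and at 39.4, 42.7 and 42.6 CPM under CR. These groups overlapped, with a log2 difference of 0.073 (95% interval -0.18 to 0.33, adjusted p = 0.728). Hadha was at 187.7, 166.4 and 174.3 CPM in AL and at 146.9, 149.2 and 136.3 CPM under CR. All 3 CR samples were lower, the log2 difference was -0.29 (95% interval -0.49 to -0.091, adjusted p = 0.0567), and DESeq2 called it (adjusted p = 0.00527). Acadl ranged from 68.2 to 68.9 CPM in AL and from 73.7 to 87.0 CPM under CR, also without overlap, with an adjusted p of 0.174. Cpt1a (164.0 to 186.2 CPM in AL, 165.8 to 195.5 CPM under CR), Acadvl (20.7 to 22.4 and 19.5 to 24.8 CPM) and Cpt1b (0.793 to 0.979 and 0.490 to 0.896 CPM) overlapped between diets, with adjusted p from 0.595 to 0.913.

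**Figure D2:**
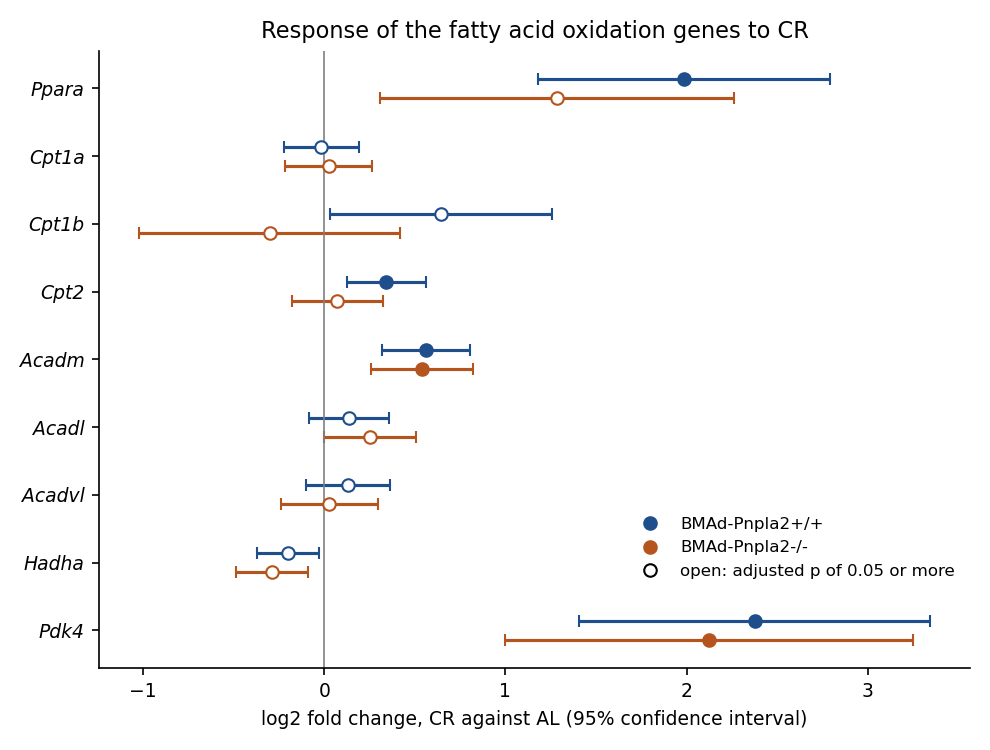
Log2 fold change of CR against AL (x axis) for the 9 genes in BMAd-Pnpla2+/+ and BMAd-Pnpla2-/- mice, with 95% confidence intervals from edgeR's fit; filled points have an adjusted p under 0.05. Pdk4 and Ppara lie at 1.29 or more in both genotypes, Acadm at 0.56 and 0.54, Cpt1a near zero and Hadha below zero, and the intervals of the genotypes overlap for every gene.

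Whether the response to CR depended on adipocyte Pnpla2 was tested as the difference between the 2 responses. None of the 9 genes passed, against 0% of all 17671 genes (0 by edgeR's quasi-likelihood test, 58 by DESeq2, 1836 at an unadjusted p under 0.05). For Acadm the difference was -0.022 on the log2 scale with a 95% interval from -0.39 to 0.35, and for Pdk4 -0.25 with an interval from -1.71 to 1.20. For Ppara it was -0.70 with an interval from -1.99 to 0.59, and for Cpt2 -0.27 with an interval from -0.60 to 0.064. The intervals of Pdk4 and Ppara are wide enough to hold both equal responses and large differences. Cpt1b was the 1 member with an unadjusted p under 0.05. Its difference was -0.95 (95% interval -1.90 to -0.0014, adjusted p = 0.480), from 8 to 26 reads a sample, and DESeq2 called none of the 9, with 4 not given an adjusted p.

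The difference between genotypes was tested on each diet. Under CR it cannot be told apart from the difference in strand information between the libraries. Fed AL, none of the 9 genes passed, against 0% of all genes (0 by edgeR's quasi-likelihood test, 18 by DESeq2, 700 at an unadjusted p under 0.05). The differences of the 9 genes ran from -0.16 (Acadm) to 0.37 (Cpt1b) on the log2 scale, none had an unadjusted p under 0.05, and DESeq2 called none. Under CR, none of the 9 passed either, against 0.0113% of all genes (2 genes by edgeR's quasi-likelihood test, Pnpla2 being 1 of them, 1608 by DESeq2, 4095 at an unadjusted p under 0.05). Cpt2 came nearest: each of the 3 BMAd-Pnpla2-/- CR samples (39.4 to 42.7 CPM) lay below each of the 4 BMAd-Pnpla2+/+ CR samples (44.9 to 58.7 CPM). Its log2 difference was -0.36 (95% interval -0.60 to -0.13, adjusted p = 0.0953), and it passed with DESeq2 (adjusted p = 0.0178) and without BMAd-Pnpla2+/+ CR replicate 4 (adjusted p = 0.0252). Ppara (-0.72, 95% interval -1.52 to 0.076) and Cpt1b (-0.58, 95% interval -1.24 to 0.091) had larger differences that did not pass, at adjusted p of 0.260 and 0.280. The median log2 difference of the 9 genes under CR was -0.20, and that of all genes -0.011. The comparisons share their groups, so they are not independent of each other.

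Acadvl depended on how reads were counted. The authors' matrix holds reverse-strand counts for 11 samples and unstranded counts for the 3 BMAd-Pnpla2-/- CR samples. In unstranded counting a read in the exons shared with Dvl2 goes to neither gene, while in reverse-strand counting it goes to the gene whose strand it matches. Unstranded counts of Acadvl were 433 to 500 in BMAd-Pnpla2+/+ AL, 418 to 616 in BMAd-Pnpla2+/+ CR, 394 to 412 in BMAd-Pnpla2-/- AL and 397 to 472 in BMAd-Pnpla2-/- CR. The matrix holds 1020 to 1109, 998 to 1352 and 892 to 999 for the first 3 groups and 397 to 472 for the last. On the matrix, Acadvl was 1.37 lower on the log2 scale in BMAd-Pnpla2-/- CR than in BMAd-Pnpla2+/+ CR (log2 difference -1.37, adjusted p = 8.20e-07). From unstranded counts in every sample it was -0.20 (95% interval -0.45 to 0.046, adjusted p = 0.306). With both strands summed, a setting chosen after seeing the data that also gives Acadvl the Dvl2 reads of the shared exons, it was -0.39 (adjusted p = 0.0648). In the matrix Acadvl was also called lower for CR in BMAd-Pnpla2-/- (-1.22, adjusted p = 3.81e-06) and in the difference of the responses (-1.33, adjusted p = 5.83e-05), and it was the 1 member called between genotypes there. Hadha shares 75 exon bases with Garem2.

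**Figure D3:**
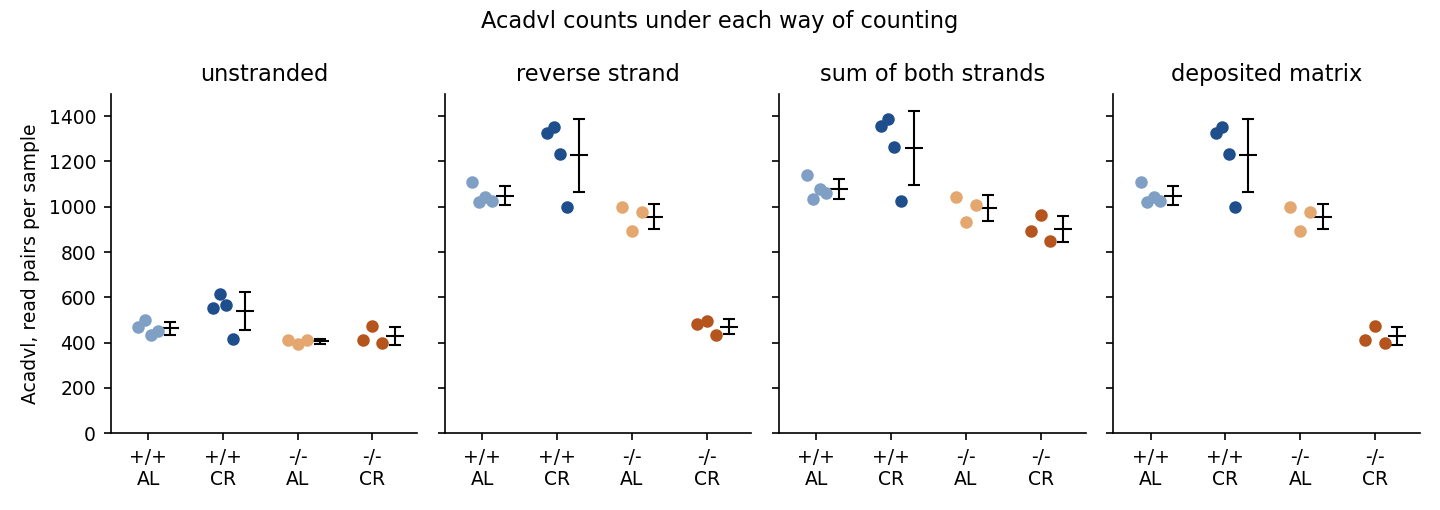
Read pairs counted for Acadvl in each of the 14 samples (y axis) under 4 ways of counting, by genotype and diet, with the mean ± SD of each group. The BMAd-Pnpla2-/- CR samples lie at 397 to 472 in the deposited matrix, far below the other groups there, but within the range of the other groups in unstranded counts.

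Other genes of the pathway were taken from 6 lists that exclude the 9 genes. Their counts for CR in BMAd-Pnpla2+/+ stand beside 26% of all genes called, 15.1% higher and 10.9% lower. Those calls over all genes were 4602 with all samples and 3065, 2937 and 3424 without BMAd-Pnpla2+/+ AL replicate 2, 3 and 4. They were 2694 and 2228 without BMAd-Pnpla2+/+ CR replicate 2 and 3. Without BMAd-Pnpla2-/- CR replicate 2 they were 4091, and with only the groups compared 2742 of 16699. In BMAd-Pnpla2+/+ under CR, 6 of 17 mitochondrial beta-oxidation genes (35.3%) rose and none fell. The 3 largest were Hadh, a short-chain hydroxyacyl-CoA dehydrogenase (log2 fold change 0.77, adjusted p = 0.00948), Decr1, which handles unsaturated chains (0.74, adjusted p = 0.0173), and Acadsb, a short branched-chain dehydrogenase (0.73, adjusted p = 0.00341). The count was 3 without BMAd-Pnpla2+/+ CR replicate 3. Of 12 activation and carnitine genes 3 rose and 1 fell: Acsl1, the main acyl-CoA synthetase of adipocytes, went from 275.7 ± 26.5 to 582.9 ± 86.4 CPM (SD; log2 fold change 1.08, adjusted p = 0.000188), while Acsl5 fell by 0.49 on the log2 scale (adjusted p = 0.0216). Acacb, whose product malonyl-CoA inhibits CPT1, went from 13.3 ± 4.66 to 50.4 ± 15.9 CPM (log2 fold change 1.92, adjusted p = 0.00227), and Acot2, a mitochondrial thioesterase that turns acyl-CoA back to free fatty acid, rose by 0.66 (adjusted p = 0.00639). Acacb is thus known for holding back fatty acid entry, and Acot2 for undoing the activation step, unlike Acsl1. Acot2 has a near-identical neighbour, Acot1, so its reads are uncertain, and the Acsl5 call was lost without BMAd-Pnpla2+/+ AL replicate 2 or CR replicate 2 or 3.

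Of 13 peroxisomal genes tested, 5 rose, among them Acaa1b (log2 fold change 1.76, adjusted p = 0.0230, from 0.970 ± 0.757 to 3.30 ± 1.06 CPM, SD), Pex11a (1.10, adjusted p = 0.00791) and Abcd2, a transporter of very long chains (0.93, adjusted p = 0.000949). The count was 3 without BMAd-Pnpla2+/+ AL replicate 3, CR replicate 2 or CR replicate 3, and Acaa1b, which has the near-identical copy Acaa1a, was among the calls then lost. Of 15 PPAR-alpha partners and targets tested, 7 rose: the largest were Rxrg, an RXR partner of the receptor (1.84, adjusted p = 0.00576), the coactivator Ppargc1a (1.10, adjusted p = 0.0445) and the mitochondrial carrier Ucp3, from 2.89 ± 0.788 to 5.81 ± 0.818 CPM (SD, adjusted p = 0.0206). This count was 1 without BMAd-Pnpla2+/+ AL replicate 2, AL replicate 3 or CR replicate 2, and 2 without CR replicate 3. It was 3 without AL replicate 4, 4 without BMAd-Pnpla2-/- CR replicate 2 and 4 with only the groups compared. Rxrg passed in 14 of 14 fits that left out 1 sample and Ppargc1a, which is also in the brown adipocyte marker list, in 2. Both were low: Rxrg went from 0.600 ± 0.158 to 2.15 ± 1.12 CPM and Ppargc1a from 1.23 ± 0.690 to 2.64 ± 0.904 CPM (SD). Fgf21, Cyp4a10, Cyp4a14 and Fabp1, classical PPAR-alpha targets of liver, had too few reads to be tested. Around pyruvate dehydrogenase, 6 of 13 genes rose, the largest being Pdk2, a sister kinase of Pdk4 (0.75, adjusted p = 0.00797), Pdpr, which regulates the opposing phosphatase (0.46, adjusted p = 0.0135), and Dlat, a subunit of the complex (0.42, adjusted p = 0.0139). The genes that rose thus included a kinase, a part of the complex and a phosphatase regulator. The count was 3 without BMAd-Pnpla2+/+ AL replicate 3.

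In BMAd-Pnpla2-/- under CR, 11.6% of all genes were called, 6.04% higher and 5.57% lower. Of all 17671 genes, 5145 had an unadjusted p under 0.05 and DESeq2 called 3147. Calls over all genes fell from 2052 to 444, 1925 and 555 without BMAd-Pnpla2-/- AL replicate 1, 2 and 3. They were 1440, 827 and 243 without BMAd-Pnpla2-/- CR replicate 1, 2 and 3. Without BMAd-Pnpla2+/+ AL replicate 3 they were 1752, and without BMAd-Pnpla2+/+ CR replicate 4 they were 2431. Of 17 mitochondrial genes 0 passed by edgeR's quasi-likelihood test (9 at an unadjusted p under 0.05, 2 by DESeq2, and up to 3 without 1 sample, the most without BMAd-Pnpla2+/+ CR replicate 4). The count was 2 with totals only, 2 with only the groups compared, 1 with the replicate block and 3 on the deposited matrix. Of 15 PPAR-alpha partners and targets 0 passed by the same test (5 at an unadjusted p under 0.05, 3 by DESeq2, and up to 3 without that same sample). That count was 3 with only the groups compared, 3 on the matrix and 1 with RLE factors, totals only, no low-count filter or the replicate block. Calls over all genes in those settings were 2672, 3898, 2180, 2083, 1611 (of 34543) and 1831, in that order. Genes named in the next sentences outside the naming rule were chosen after their values were seen. Of 12 activation genes 2 rose, Acsl1 (0.58, adjusted p = 0.0149) and Acsl4 (0.46, adjusted p = 0.0286), another acyl-CoA synthetase. Neither was left without BMAd-Pnpla2-/- AL replicate 1 or 3 or CR replicate 3, and 1 was left without BMAd-Pnpla2+/+ AL replicate 3, BMAd-Pnpla2-/- AL replicate 2 or CR replicate 1. Of 13 peroxisomal genes 2 rose and 1 fell, with Abcd2 (0.79, adjusted p = 0.00951) among those that rose. Leaving out BMAd-Pnpla2-/- AL replicate 1 or 3, or any of the 3 BMAd-Pnpla2-/- CR samples, left 1 of these 3 calls, Abcd2. Of 13 pyruvate dehydrogenase genes 4 rose: the kinase Pdk1 (0.43, adjusted p = 0.0245), the subunit Dld (0.50, adjusted p = 0.0126), the phosphatase Pdp1 (0.56, adjusted p = 0.0199) and its regulator Pdpr (0.68, adjusted p = 0.0106). The count was 0 without BMAd-Pnpla2-/- AL replicate 3, 1 without CR replicate 3 and 2 without AL replicate 1 or CR replicate 2.

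Acacb was at 11.4 ± 2.52 CPM in BMAd-Pnpla2-/- AL and 22.5 ± 9.38 CPM under CR (SD, adjusted p = 0.0844). The list medians of the log2 fold change in BMAd-Pnpla2-/- and BMAd-Pnpla2+/+ were 0.22 and 0.22 for mitochondrial genes, 0.20 and 0.21 for activation genes, 0.36 and 0.52 for peroxisomal genes, 0.17 and 0.29 for PPAR-alpha partners and 0.32 and 0.26 for pyruvate dehydrogenase genes, in that order, beside medians of all genes of 0.047 and 0.0028. The test of the difference between the responses called 0 of the 76 listed genes tested by edgeR's quasi-likelihood test (7 at an unadjusted p under 0.05, 0 by DESeq2). Between genotypes it called 0 of the 76 fed AL (4 at an unadjusted p under 0.05, 0 by DESeq2) and 0 under CR (25 at an unadjusted p under 0.05, 7 by DESeq2).

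Of 6 ketone body genes, none rose past the threshold and 1 fell in BMAd-Pnpla2+/+, against 26% of all genes called. DESeq2 called 2, and 2 had an unadjusted p under 0.05, against 5603 and 7138 of all 17671 genes. In BMAd-Pnpla2-/-, where 11.6% of all genes were called, 0 passed by edgeR's quasi-likelihood test (0 at an unadjusted p under 0.05, 0 by DESeq2). Oxct1, which lets cells use ketone bodies, fell by 0.38 on the log2 scale in BMAd-Pnpla2+/+ (adjusted p = 0.0223), from 87.5 ± 12.0 to 67.4 ± 7.49 CPM (SD), and not past the threshold in BMAd-Pnpla2-/- (-0.053, adjusted p = 0.820). The Oxct1 call was lost without BMAd-Pnpla2+/+ AL replicate 2 and with only the groups compared. Acat1 (0.12, adjusted p = 0.388), Bdh1 (0.53, adjusted p = 0.329) and Aacs (0.0072, adjusted p = 0.971) did not pass in BMAd-Pnpla2+/+.

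**Figure D4:**
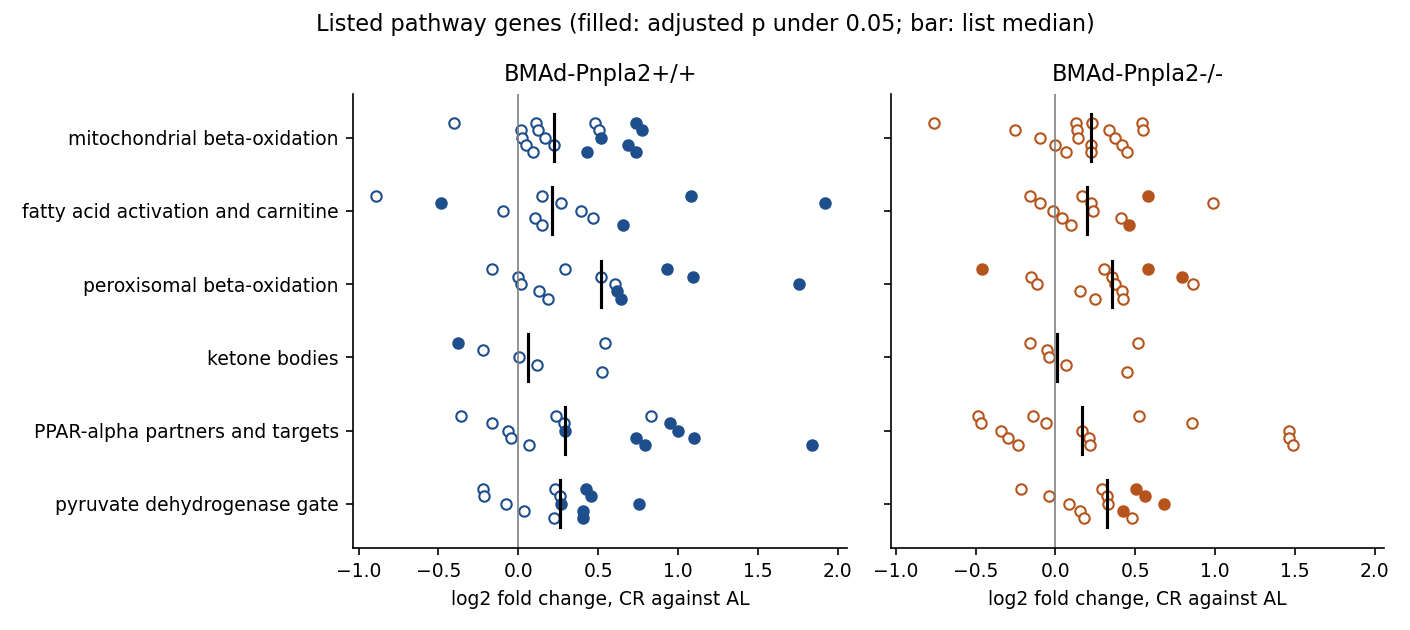
Log2 fold change of CR against AL (x axis) of each tested gene in the 6 pathway lists, in BMAd-Pnpla2+/+ (left) and BMAd-Pnpla2-/- (right); filled points have an adjusted p under 0.05 and the vertical bar is the list median. Peroxisomal genes have the highest medians (0.52 and 0.36) and ketone body genes the lowest (0.061 and 0.012).

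Cell markers differed between diets. All 8 adipocyte markers rose under CR in both genotypes, with medians of 2.07 and 2.22 on the log2 scale. Their summed level was 655 to 1685 CPM in BMAd-Pnpla2+/+ AL, 1869 to 4618 CPM in BMAd-Pnpla2+/+ CR, 297.5 to 674.5 CPM in BMAd-Pnpla2-/- AL and 1193 to 1937 CPM in BMAd-Pnpla2-/- CR. The BMAd-Pnpla2+/+ CR sample with the lowest adipocyte sum, replicate 4, also had the lowest Acadm, Cpt2, Ppara and Acadvl of its group. Its Pdk4, Hadha and Cpt1b were the second lowest, but its Cpt1a (187.1 CPM) and Acadl (83.8 CPM) were the highest. The lowest Pdk4 was in replicate 1, with an adipocyte sum of 3539 CPM. Between genotypes the median difference of the 8 adipocyte markers was -1.14 fed AL and -1.04 under CR. Past the threshold by edgeR's quasi-likelihood test were 0 of 8 (6 of 8 at an unadjusted p under 0.05 on each diet, and 0 and 2 by DESeq2). Of all 17671 genes, 700 fed AL and 4095 under CR had such a p, and DESeq2 called 18 and 1608. Of 9 neutrophil markers 6 were lower in BMAd-Pnpla2+/+ CR, with sums of 28494 to 36762 CPM in AL against 13967 to 25880 CPM under CR. B-cell precursor markers were lower at 6 of 10 in both genotypes. In BMAd-Pnpla2+/+ CR, 4 of 6 osteoblast, 4 of 5 endothelial, 2 of 6 macrophage and 1 of 5 stromal markers were higher. Of all genes, 15.1% were higher and 10.9% lower for CR in BMAd-Pnpla2+/+, and 6.04% and 5.57% in BMAd-Pnpla2-/-. In BMAd-Pnpla2-/- CR, 1 of 5 stromal markers was higher, and 0 of the osteoblast, endothelial, macrophage and neutrophil markers passed by edgeR's quasi-likelihood test (0, 2, 3 and 4 at an unadjusted p under 0.05, and 0, 1, 1 and 3 by DESeq2). For that comparison 5145 of all 17671 genes had such a p, and DESeq2 called 3147. Brown adipocyte markers summed to 6.63 CPM at most in any sample and Ucp1 to 0.228 CPM at most. Of the 3 tested, 2 were higher for CR in BMAd-Pnpla2+/+. In BMAd-Pnpla2-/- 0 passed by edgeR's quasi-likelihood test (2 at an unadjusted p under 0.05, 1 by DESeq2). How far these shifts enter the changes of the 9 genes was not tested. Of 8 erythroid markers 0 passed for CR in BMAd-Pnpla2+/+ by edgeR's quasi-likelihood test (2 at an unadjusted p under 0.05, 1 by DESeq2). For that comparison 7138 of all 17671 genes had such a p, and DESeq2 called 5603.

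Skeletal muscle markers bear on Cpt1b, the muscle form. They summed to 11.5 to 33.9 CPM in BMAd-Pnpla2+/+ AL, 10.5 to 20.5 CPM in BMAd-Pnpla2+/+ CR and 15.3 to 18.1 CPM in BMAd-Pnpla2-/- AL, but to 12.7, 43.5 and 144.6 CPM in the 3 BMAd-Pnpla2-/- CR samples. The sample with 144.6 CPM, replicate 3, had the lowest Cpt1b of its group, 0.490 CPM from 10 reads. Tnnc2 was at 0 in all CR samples, and none of the 6 muscle markers tested passed in any comparison by edgeR's quasi-likelihood test. For CR in BMAd-Pnpla2-/- 5 of the 6 had an unadjusted p under 0.05 (1 by DESeq2), and between genotypes under CR 5 did (3 by DESeq2). Of all 17671 genes, 5145 and 4095 had such a p in these comparisons, and DESeq2 called 3147 and 1608. The part of the muscle signal in the Cpt1b values was not tested.

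**Figure D5:**
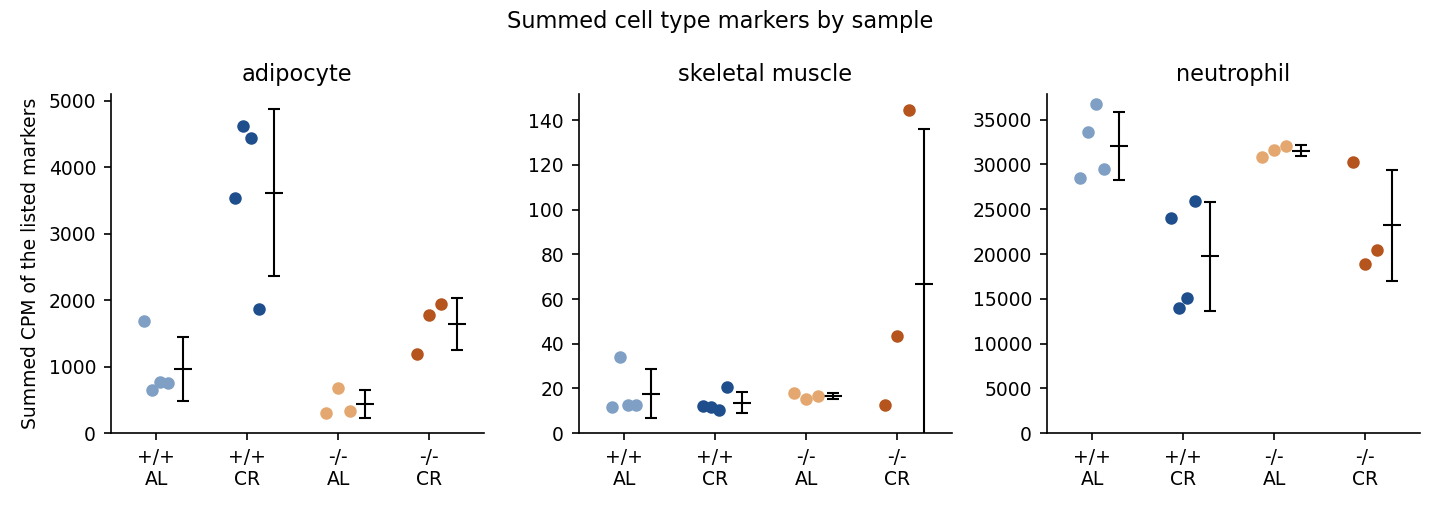
Summed CPM of the listed adipocyte, skeletal muscle and neutrophil markers in each sample (y axes from 0), by genotype and diet, with the mean ± SD of each group; the lower end of the SD bar for muscle in BMAd-Pnpla2-/- CR falls below 0 and is not drawn. Adipocyte sums are higher and neutrophil sums lower under CR in each genotype, and a muscle sum of 144.6 CPM stands out in BMAd-Pnpla2-/- CR.

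Over the 14 samples, Pdk4, Ppara and Acadm had the most similar profiles of the 9 genes. Pearson's r of their log2 CPM was 0.90 for Pdk4 and Ppara, 0.90 for Pdk4 and Acadm and 0.85 for Ppara and Acadm, while Pdk4 and Hadha ran in opposite directions (-0.80) and Cpt1a and Ppara had r of -0.001. These are descriptions over samples that share diets, libraries and cell mix. Among 13051 genes averaging 50 counts or more, those most like Pdk4 were Spaar (r = 0.987), Klf9 (0.981) and Klhl3 (0.974), and for deviations from the group means the same genes had r of 0.946, 0.913 and 0.929. Klf9 encodes a transcription factor induced by glucocorticoids. Most like Acadm were Hlf (0.972), Bnip3 (0.969) and Aldh6a1 (0.967), and most like Cpt2 were Cluh (0.961), Pccb (0.953) and Aldh1l1 (0.952). Cluh binds messenger RNAs of mitochondrial proteins, and Aldh6a1 and Pccb act in the breakdown of branched-chain amino acids and propionate. Hadha was most like Lman2 (r = 0.975), Tufm (0.974) and Lin37 (0.966), of which Tufm is the elongation factor of mitochondrial translation. Ppara was most like Wwc1 (0.964), Dnm3 (0.960) and Grb10 (0.956). For the members not called in any comparison, the nearest genes were Sh3glb1 for Acadl (0.881), Kif3a for Acadvl (0.897), Hsd17b11 for Cpt1a (0.790) and Unc5a for Cpt1b (0.771).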

How the data were processed

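RNA from 14 samples of distal tibial marrow (2 mice pooled in each) was sequenced by the authors as strand-specific paired reads of 100 bases, checked with FastQC 0.11.9 and aligned to mm10 with STAR, per the study's methods. The deposited counts are whole-number read pairs per gene, as STAR writes them, in unstranded, first-strand and reverse-strand columns for 55401 genes, plus a matrix of 23441 genes. Column 2, unstranded, was used here for all samples, because 3 libraries carry no strand information.

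Genes with low counts were removed (filterByExpr), libraries were scaled by TMM, and 1 model of the 4 groups was fitted in edgeR 4.0.16 (R 4.3.3) with the robust quasi-likelihood test, with Benjamini-Hochberg adjustment over 17671 genes and a threshold of 0.05. DESeq2 1.42.0 was an alternative. The scripts were tested on simulated data. RPKM used merged GENCODE exon lengths. The other alternatives were edgeR's RLE factors, totals alone, no low-count filter, the deposited matrix, only the groups compared, a replicate block, reverse-strand counts of 11 samples and leaving out each sample.

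The 9 genes, the pathway and marker lists and the tests were chosen with earlier results of these data known. Named genes are the 9, the targeted gene, the ketone body genes, the 3 largest changes past the threshold in BMAd-Pnpla2+/+ in each other list, and the 3 genes most correlated with each member. Acsl5 was named after its value was seen. Some genes of these lists are not reported here by name.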

Additional observations from a re-analysis of the deposited data

Results flagged for a closer look

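Ppara in BMAd-Pnpla2+/+ AL replicate 3, at 0.463 CPM (9 reads), lay apart from the other 3 samples of its group (0.264 to 0.290 CPM, 5 or 6 reads), with a gap of 0.87 of the group's range, past Dixon's limit for 4 samples. It was the 1 case in 20 sets of 4 samples, and chance alone gives about 1. Without this sample the log2 fold change of Ppara under CR in BMAd-Pnpla2+/+ was 2.15 (edgeR's quasi-likelihood test, adjusted p = 0.0109).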

How the results depend on the processing

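For CR in BMAd-Pnpla2+/+, 4 genes passed and 3 to 5 did when 1 sample was left out. Calls over all genes were then 2228 to 6029, against 4602 with all samples. For CR in BMAd-Pnpla2-/-, 2 passed, 1 with no low-count filter, 4 on the deposited matrix, 4 with only the groups compared and 0 to 3 without 1 sample. Calls over all genes moved too: 2052 of 17671, 1611 of 34543 with no filter, 3898 of 17509 on the matrix and 2672 of 16576 with only the groups compared. Without 1 sample they ran from 243 of 18138 to 2435 of 17536. With the fold threshold, 1 passed there, 0 with no filter, 2 on the matrix, 2 with only the groups compared and 0 to 1 without 1 sample. Between genotypes under CR, 0 passed, 1 with DESeq2 (Cpt2), 1 on the matrix (Acadvl) and 0 to 1 without 1 sample. For the difference of the responses, 0 passed and 1 on the matrix (Acadvl). Over all genes, DESeq2 called 3147 against 2052 for CR in BMAd-Pnpla2-/-, 1608 against 2 between genotypes under CR, 18 against 0 fed AL and 58 against 0 for the difference. The cause was not tested, except for Acadvl, whose matrix values mix 2 kinds of counting.

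Of 998 values of single genes under the alternatives, 899 kept their sign and call, 16 lost a call, 18 gained one and 65 changed sign. The log2 differences that changed sign were as follows. In BMAd-Pnpla2+/+ under CR, Cpt1a was 0.033 with totals only and -0.10 to 0.012 without 1 sample. In BMAd-Pnpla2-/- under CR, Cpt1a was -0.013 with RLE factors, -0.048 with no filter, -0.013 with DESeq2, -0.0098 with only the groups compared and -0.065 to 0.076 without 1 sample. Cpt2 was -0.0002049 with no filter and -0.012 to 0.11 without 1 sample. Acadvl was -0.011 with RLE factors, -0.045 with no filter, -0.011 with DESeq2, -1.22 on the matrix, -0.0058 with only the groups compared, -0.22 with both strands summed and -0.071 to 0.11 without 1 sample. Between genotypes fed AL, Acadl was -0.016 with totals only and -0.041 to 0.094 without 1 sample, Ppara -0.13 to 0.19, Cpt1a -0.11 to 0.036, Hadha -0.090 to 0.0052 and Pdk4 -0.83 to 0.15. Between genotypes under CR, Cpt1a was -0.0080 with RLE factors, -0.016 with no filter, -0.0079 with DESeq2, -0.019 with the replicate block, -0.014 with both strands summed and -0.047 to 0.071 without 1 sample, and Pdk4 -0.60 to 0.041. In the difference of the responses, Cpt1a was -0.014 with no filter and -0.062 to 0.13 without 1 sample, Acadm 0.0025 with totals only, 0.022 on the matrix and -0.13 to 0.043 without 1 sample, and Pdk4 -0.58 to 0.40.

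With the replicate number as a block, 4, 2, 0, 0 and 0 genes passed in the 5 comparisons, and 2 and 1 with the fold threshold. Samples with the same number did not pair: over 19 such pairs the correlation of their deviations ran from -0.502 to 0.491 (median 0.015, 8 over 0.1). Low counts limit Ppara and Cpt1b.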
